A study of Mus musculus with 2 samples.

Results

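The 8 genes described here encode proteins of the myelin sheath: Pmp22, Prx, Cldn19, Mbp, Mag, Mog, Mobp and Cldn11. They were chosen by name as myelin genes of the peripheral and the central nervous system, and all 8 were measured, among 39098 genes in the files. Transcripts were counted in single cells of the right trigeminal ganglion (TG) of male C57BL/6 mice aged 5 to 8 weeks, in 1 control library and 1 library from mice injected with 20 μL complete Freund's adjuvant (CFA) into the right vibrissal pad. The TGs were taken a week after injection; the label of the control library reads untreated, while the study's methods describe a saline injection. The study's methods give the size of the animal groups but not how many mice went into each library, and with 1 library per condition no difference between control and CFA has a replicate check. Intervals below are exact 95% intervals for the number of counts and cover counting error only.

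Myelin is a stack of membrane wrapped around an axon, and it is built by different cells on either side of the point where a sensory root enters the brainstem. In the peripheral nerve, each myelinating Schwann cell (mSC) wraps 1 stretch of axon, and Pmp22 is among the proteins of its compact membranes. In the central nervous system, oligodendrocytes make myelin that holds other proteins, among them Mog on its outermost face, the basic protein Mobp and the tight junction protein Cldn11. Mbp, which seals the inner faces of the membrane, and Mag, the adhesion molecule of the membrane next to the axon, are used by both. Mbp and Mobp messages are known to be carried out of the cell body and translated in the sheath itself.

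Oligodendrocyte-like cells (OLCs) were recognised as cells with 3 or more UMIs (unique molecular identifiers, 1 per captured transcript) summed over Mog, Ermn and Opalin that also lay in the cluster with oligodendrocyte markers. This left 66 control and 104 CFA OLCs, of 120 and 150 cells in that cluster. Since Mog was part of this rule, its level in OLCs is a description. The clusters were built without the 8 genes. The mSCs numbered 2314 and 1386 cells, with the Schwann markers Egr2, Fam178b, Mlip, Pllp and Dusp15 summing to 2908 and 3300 counts per 1000000 UMIs (CPM) in them, against 886 and 1065 CPM in OLCs, where Pllp alone gave 696 and 654 CPM. The cells differed in depth: the median was 1061 and 874 UMIs in mSCs, 6234 and 6596 UMIs in OLCs, and 43621 and 35110 UMIs in neurons. The libraries held 6695 and 3661 cells after filtering and shared 27 barcodes.

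Below are 3 upstream windows, shown because each holds a match to a motif searched; they cover the bases from 250 to 51 before the RefSeq start, in build GRCm38.p6. In the RefSeq table, 7 of the 8 genes were found, with 13 windows in all. Capitals mark the letters ACAAAG, the core bound by SOX factors such as Sox10, or GTGGGCG, the core bound by EGR factors such as Egr2, on either strand. Both cores were chosen after the windows had been seen, and they do not overlap one another.
Mobp (chr9:120149492-120149691, plus strand): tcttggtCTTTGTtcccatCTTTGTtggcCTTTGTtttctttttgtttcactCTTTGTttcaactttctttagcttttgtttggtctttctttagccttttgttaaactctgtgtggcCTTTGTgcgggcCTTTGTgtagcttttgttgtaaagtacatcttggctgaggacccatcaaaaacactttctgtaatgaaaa
Mag (chr7:30914914-30915113, minus strand): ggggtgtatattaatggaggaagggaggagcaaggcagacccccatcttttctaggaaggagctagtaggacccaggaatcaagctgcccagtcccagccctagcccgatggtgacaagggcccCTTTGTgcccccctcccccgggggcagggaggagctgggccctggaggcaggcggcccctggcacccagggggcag
Cldn19 (chr4:119255191-119255390, plus strand): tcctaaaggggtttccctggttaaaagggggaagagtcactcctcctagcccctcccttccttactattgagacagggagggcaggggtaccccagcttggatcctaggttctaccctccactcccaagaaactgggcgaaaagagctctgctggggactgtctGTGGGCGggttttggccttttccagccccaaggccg
The Mobp window held 6 matches to the SOX core, all read as CTTTGT on the printed strand, and was the 1 window of 32851 windows of this length with 6. At least 1 match was found in 13.6% of all windows, among them 2 of the 3 Mag windows with 1 match each. These 2 Mag windows overlap and hold the same site. Cldn19 held 1 match to the EGR core, which 4.93% of windows held. The windows of Pmp22, Prx, Mog and Cldn11 held neither core. A match describes these letters and does not show that a factor binds there.

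The 8 genes fell into a Schwann side, an oligodendrocyte side and 1 gene between. Pmp22, Prx and Cldn19 were at least 4-fold higher in mSCs in both libraries, Mag, Mobp, Cldn11 and Mog at least 4-fold higher in OLCs, and Mbp neither. Thus 3 of the 8 genes lay on the Schwann side, where 11.8% (control) and 13.0% (CFA) of the genes with enough counts lay. Besides Mog, which was part of the rule that chose the OLCs, 3 lay on the OLC side, against 6.04% and 7.46% of those genes. The plot of the log2 ratios shows the same order of the genes in both libraries apart from Cldn19 and Prx, whose intervals overlap.

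**Figure D1:**
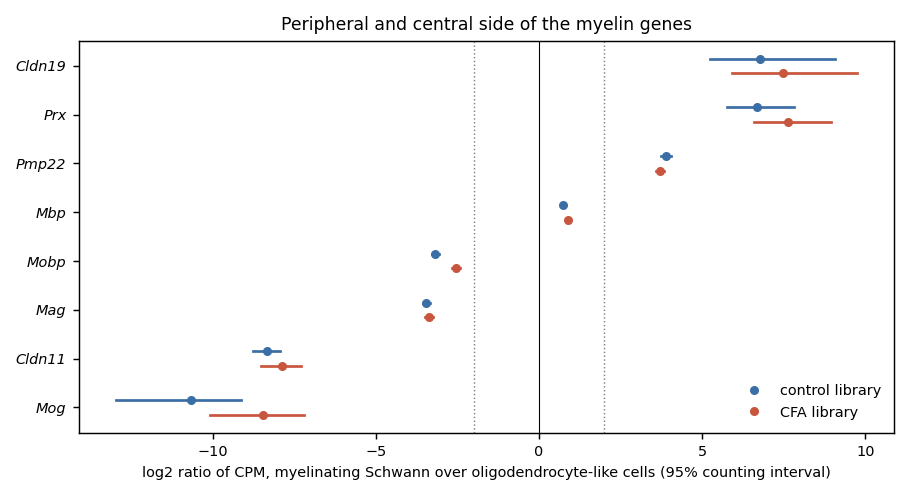
The log2 ratio of CPM in myelinating Schwann cells over that in oligodendrocyte-like cells is plotted for each gene, with exact 95% counting intervals, for the control and the CFA library. Dotted lines mark 4-fold; Mbp lies between them at 0.74 and 0.89, and Mog, at −10.68 and −8.45, was part of the rule that chose the OLCs.

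On the Schwann side, Pmp22 (ENSMUSG00000018217.12, chr11:63128982-63159547), a tetraspan membrane protein whose dose is critical for peripheral myelin, was at 11783 CPM in control mSCs and 9140 CPM in CFA mSCs. In OLCs it was at 799 and 699 CPM, so it was 14.7-fold (13.3 to 16.4) and 13.1-fold (11.9 to 14.3) higher in mSCs. Pmp22 had UMIs in 90.9% and 86.5% of OLCs, and in 29.7% and 24.0% when each cell was thinned to 500 UMIs, against 90.2% and 92.6% of thinned mSCs. Thinning kept 64 and 104 OLCs and 2252 and 1347 mSCs. Ncmap, a small membrane protein of peripheral myelin, was 241-fold (93.9 to 884) and 107-fold (62.3 to 201) lower in OLCs than in mSCs. Prx (ENSMUSG00000053198.13, chr7:27499324-27520214) encodes periaxin, the scaffold of the Schwann cell's outer membrane. Its level was 2129 and 1964 CPM in mSCs and 20.6 and 9.93 CPM in OLCs, from 9 and 7 counts, a difference of 103-fold (54.4 to 226) and 198-fold (95.9 to 492). Cldn19 (ENSMUSG00000066058.11, chr4:119255414-119262438), the claudin of the Schwann cell's tight junctions, was at 754 and 757 CPM in mSCs, 110-fold (37.5 to 533) and 178-fold (60.7 to 864) above OLCs, which held 3 Cldn19 counts in each library. For Prx and Cldn19 the OLC counts are so few that the folds are known at best within these wide bounds. The 3 Cldn19 counts came from 1 OLC in each library, and the bounds do not cover such clumping of counts.

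On the oligodendrocyte side, Cldn11 (ENSMUSG00000037625.7, chr3:31149920-31164324), the claudin of central myelin, was the mirror of Cldn19. It was at 5675 and 3942 CPM in OLCs and at 17.6 and 16.8 CPM in mSCs, 322-fold (243 to 435) and 234-fold (156 to 370) lower there. Mag (ENSMUSG00000036634.15, chr7:30899176-30914873) was at 4727 and 5157 CPM in OLCs and at 432 and 500.2 CPM in mSCs. It was thus 10.9-fold (10.2 to 11.7) and 10.3-fold (9.50 to 11.2) higher in OLCs, yet 35.0% and 36.4% of mSCs held a Mag UMI. Mobp (ENSMUSG00000032517.16, chr9:120149707-120181484), a small basic protein abundant in central myelin, was at 4572 and 3305 CPM in OLCs and 507 and 564 CPM in mSCs, 9.02-fold (8.43 to 9.66) and 5.86-fold (5.40 to 6.37) apart. Mog (ENSMUSG00000076439.12, chr17:37010743-37023398), found on the outermost face of central myelin, gave 758 and 899 counts in OLCs and 3 and 5 counts in all mSCs together. Cldn19 and Cldn11 therefore separated the cell types by 110-fold to 322-fold, while Mag and Mobp separated them by 5.86-fold to 10.9-fold. Mobp UMIs lay in 14.6% and 15.9% of mSCs, a smaller share than for Mag. That share was 15.7% and 14.7% in endothelial cells and 14.9% and 16.3% in immune cells. The median depth of both these classes was above that of mSCs, however. With each cell thinned to 500 UMIs, the share was 9.55% and 10.02% in mSCs. It was then 9.56% and 7.36% in endothelial cells and 5.02% and 8.91% in immune cells. The Mobp level was 221 and 197 CPM in endothelial cells and 244 and 310 CPM in immune cells, below that in mSCs. How far mSCs express Mobp themselves was not tested. Under the alternatives tried, the log2 ratio of mSCs over OLCs for Mobp ran from −4.60 to −2.71 (control) and −4.39 to −2.05 (CFA). For Mag it ran from −3.84 to −3.25 and from −4.68 to −3.20.

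Other myelin genes split in the same way. Of 8 measured genes of a peripheral list, 5 were at least 4-fold higher in mSCs in both libraries, namely Ncmap, Drp2, Gldn, Dag1 and Lgi4, and 0 were 4-fold higher in OLCs. The median log2 ratio of the list was 4.40 (control) and 4.78 (CFA), against 0.18 and 0.14 over all genes. Itgb4, the integrin of the Schwann cell's outer surface, and Nfasc, which holds the node of Ranvier, were instead lower in mSCs than in OLCs, at log2 ratios of −1.04 and −1.13 in the control library. All 10 reported genes of a central list, among them the transcription factor Myrf and the myelin surface protein Omg, were at least 4-fold higher in OLCs in both libraries, with medians of −8.01 and −6.97. Of 13 reported genes used by both kinds of myelin, 9 lay between, and Cmtm5, Gjb1 and Tspan2 lay on the OLC side. Cd9 was the 1 gene of that list on the Schwann side, at log2 ratios of 5.38 and 5.09. These lists were drawn up with earlier results of the same data known.

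Mbp (ENSMUSG00000041607.17, chr18:82475146-82585637) was at 12577 and 11676 CPM in mSCs and at 7548 and 6289 CPM in OLCs. It was thus 1.67-fold (1.61 to 1.73) and 1.86-fold (1.80 to 1.92) higher in mSCs. Its direction depended on which cells of the OLC cluster were taken: with every cell of that cluster in place of the OLCs, the log2 ratio turned to −0.28 for control and stood at 0.51 for CFA. Between cells with at least 2000 UMIs it was 0.34 and 0.21. The annotated Mbp gene also spans the longer golli transcripts, which are made outside myelin too, and gene counts do not tell these apart from the transcripts of myelin.

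The cells of the OLC cluster outside the rule, 54 and 46 cells, carried a different balance of the same transcripts. Their median depth was 559 and 589 UMIs. Mbp reached 74498 and 50294 CPM there, and Mobp 9185 and 9521 CPM, both above the OLCs, while Mag (3027 and 2009 CPM) was below. When the whole cluster was split by depth, Mbp was at 105834 and 54066 CPM in cells under 1000 UMIs and at 7644 and 6035 CPM in cells with 3000 or more. Mobp was at 14892 and 9518 CPM in the shallow cells and 4322 and 3262 CPM in the deep ones. Mag, Mog and Cldn11 were at lower levels in the shallow cells than in the deep ones, in both libraries, with Mog at 542 against 1651 CPM and 253 against 1286 CPM. The shallow cells also held more mitochondrial RNA, 12.5% against 4.45% of UMIs (control) and 9.47% against 3.93% (CFA), whose part in the result was not tested. One of the control cells outside the rule had 11496 UMIs, while the CFA cells there reached 1742 UMIs at most.

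**Figure D2:**
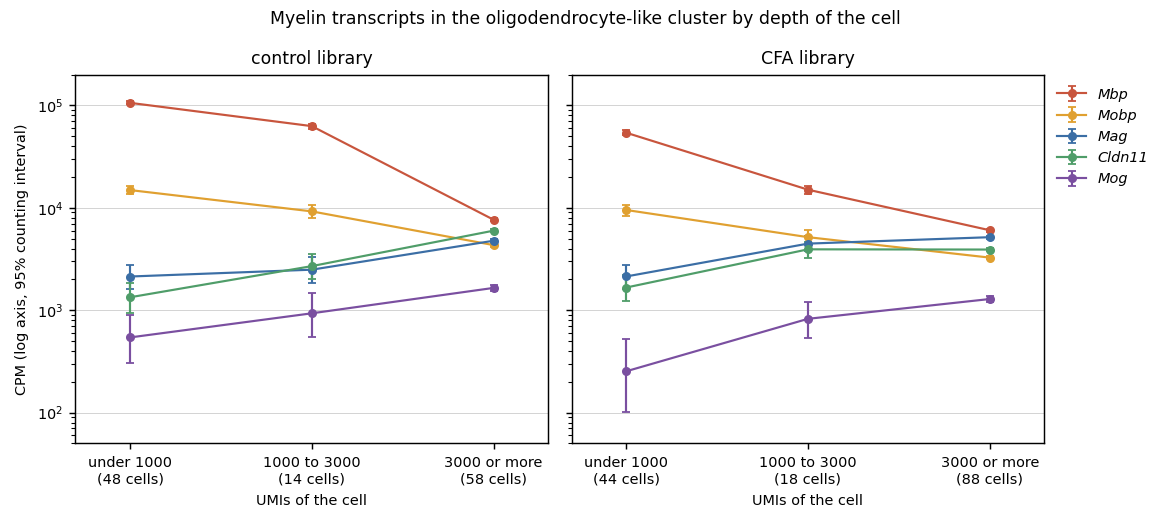
CPM on a log axis, with exact 95% counting intervals, for 5 myelin transcripts in the cells of the oligodendrocyte-like cluster, split by the UMIs of the cell, in each library. Mbp and Mobp are higher in the shallow cells, at 105834 and 54066 CPM for Mbp, while Mag, Cldn11 and Mog are lower there.

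Within mSCs, Mobp was also higher in the shallow cells. It was at 1013 and 786 CPM in mSCs under 1000 UMIs, and at 344 and 376 CPM in those with 1000 to 3000 UMIs. Cldn11 was at 31.0 and 23.0 CPM in the first class, from 24 and 15 counts, and at 14.1 and 11.8 CPM in the second. Mbp was at 16260 and 12273 CPM in the first class and 11721 and 11612 CPM in the second. Pmp22 was at 11776 and 9064 CPM in the first class and at 12244 and 9583 CPM in the second. In the 55 and 9 mSCs with 3000 or more UMIs, Pmp22 was lower, at 7820 and 2679 CPM, as were Prx, at 1039 and 258 CPM, and Mbp, at 6626 and 2783 CPM. A second, smaller mSC cluster of 292 and 96 cells, which held more neuronal RNA, had Pmp22 at 5067 and 3001 CPM against 13399 and 9904 CPM in the main cluster. Without it, 3 genes remained on the Schwann side and 4, with Mog, on the OLC side in both libraries.

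To see how far these transcripts were present outside the myelin-forming cells, their levels were compared with those expected from RNA carried over from mSCs and OLCs. Carry-over from mSCs was read from the sum of Pllp and Ncmap, both held by mSCs and outside the 8. Together they gave 114 and 55 counts in endothelial cells (ECs), 7.17% and 6.69% of the mSC level, and 72 and 15 counts in immune cells (ICs), 3.23% and 1.44%. In neurons they gave 342 and 107 counts, 0.282% and 0.220% of the mSC level, yet per cell a neuron held 0.416 and 0.25 of these UMIs against 0.389 and 0.337 in an EC and 0.238 and 0.0743 in an IC. The lower neuronal CPM therefore goes with the greater depth of neurons. The pair did not move as 1 in ECs: Pllp, which OLCs hold too, stood there at 14.7% and 18.7% of its mSC level, and Ncmap at 3.95% and 1.07%. Pllp was only 1.35-fold and 1.41-fold higher in mSCs than in OLCs, so Pllp from other cells counts as carry-over from mSCs here. Carry-over from OLCs was read from Ermn and Opalin together, which gave 30 and 10 counts in neurons, 1 and 4 in ECs and 0 and 1 in ICs. The expectation is therefore loose for the oligodendrocyte genes, most of all in ECs and ICs. Where both were at 0, 3 counts were used. The intervals below cover the counts of the observed gene and not those of the reference genes.

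**Figure D3:**
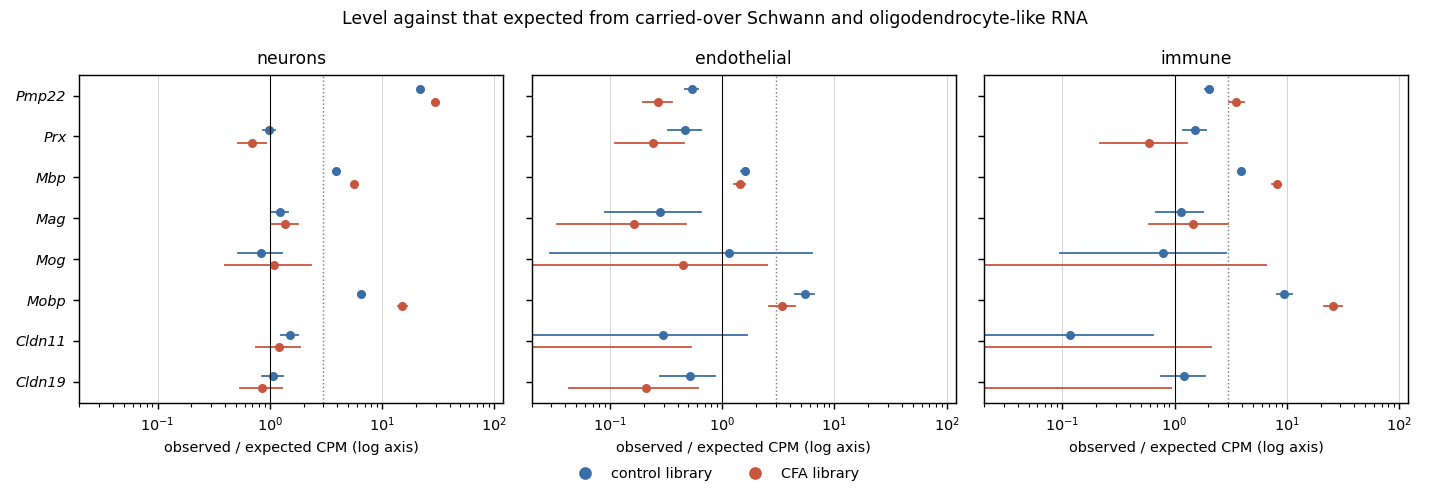
Observed over expected CPM on a log axis for each gene in neurons, endothelial and immune cells of each library, with exact counting intervals for the observed counts. The solid line marks 1 and the dotted line 3; Mobp lies above 3 in all classes of both libraries, Mbp in neurons and immune cells, Pmp22 lies at 21.6 and 29.7 in neurons, and a line without a point marks 0 counts.

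Prx, Cldn19 and Mag stayed under 2 times the carried-over level in neurons, ECs and ICs of both libraries. In neurons, Prx was at 5.93 and 3.03 CPM, 0.988 times (0.864 to 1.12) the expectation in control and 0.701 times (0.522 to 0.921) in CFA. In ECs it was at 71.2 and 31.6 CPM, 0.466 times and 0.241 times the expectation, below it in both libraries. With Ncmap alone as the Schwann reference, these EC values were 0.847 times (0.593 to 1.17) and 1.5 times (0.685 to 2.85). Cldn19 was at 0.512 and 0.208 times the expectation in ECs, and at 0.930 and 1.30 times with Ncmap alone, where both intervals include 1. In CFA ICs it gave 0 counts, where 3 counts would be 8.31 CPM. Mag was at 1.13 and 1.46 times the expectation in ICs and below it in ECs, from 5 and 3 counts. Prx in control ICs stood above the expectation, at 1.52 times (1.19 to 1.90). Of the 24 pairs of gene and class, 6 (control) and 7 (CFA) lay above 3 times the expectation, and all of them belonged to Mbp, Mobp or Pmp22. The share of all genes past 3 times such an expectation was not worked out. These counts therefore describe the 8 genes and do not set them apart from other genes.

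Mbp and Mobp stood above the expectation in every one of the 3 classes. Mbp was at 1437 and 1170 CPM in ECs, 1.58 times and 1.43 times the expectation, at 1653 and 1427 CPM in ICs, 3.92 times and 8.13 times, and at 150 and 153 CPM in neurons, 3.92 times and 5.58 times. With Ncmap alone as the reference, the EC values of Mbp were 2.85 times and 7.19 times. Mobp was at 221 and 197 CPM in ECs, 5.44 times and 3.42 times the expectation, and at 244 and 310 CPM in ICs, 9.50 times and 25.8 times. In neurons it was at 20.5 and 31.6 CPM, 6.54 times (6.09 to 7.01) and 15.2 times (13.9 to 16.5). Mobp exceeded its expectation by more than Mbp did in all 3 classes, except that in CFA ECs the intervals of both overlapped with Ncmap alone as the reference. In these classes the balance between the transcripts was neither that of mSCs nor that of OLCs. For each 100 Mbp UMIs, mSCs held 4.03 and 4.83 Mobp UMIs, OLCs 60.6 and 52.5, ECs 15.4 and 16.8, ICs 14.7 and 21.7, and neurons 13.7 and 20.7. Mag, at 62.6 and 82.0 UMIs per 100 Mbp UMIs in OLCs and 3.44 and 4.28 in mSCs, was at 0.688 and 0.901 in ECs. It was at 1.62 and 1.36 in ICs and at 2.43 and 2.14 in neurons. Of these 3 classes, neurons lay nearest to mSCs for Mag. The cell barcodes that the filter left out, 603 and 419, for few genes or much mitochondrial RNA, held 19.8 and 27.4 Mobp UMIs and 0.486 and 0.640 Mag UMIs per 100 Mbp UMIs, and their Mbp stood at 8730 and 5346 CPM. These ratios lay nearer to those of ECs and ICs than the ratios of OLCs or mSCs did.

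Of the 8 genes, Pmp22 stood furthest above the carried-over level in neurons of both libraries. Control neurons held 724 CPM (716 to 733) and CFA neurons 603 CPM (591 to 615), which is 21.6 times and 29.7 times the expectation, with 34.0 and 23.7 UMIs per cell. Neurons accounted for 39.4% and 40.1% of all Pmp22 UMIs, close behind mSCs with 47.0% and 49.5%, against 2.95% and 1.63% of Prx UMIs. Of all UMIs kept, however, neurons held 38638653 of 48233077 (control) and 16814047 of 21658155 (CFA), and mSCs only 2834697 and 1367586. Per UMI, Pmp22 was thus lower in neurons than in mSCs, which held 11783 and 9140 CPM. The level differed between the 7 clusters of neurons, which are named here by their leading genes. It was highest in the cluster led by C1ql4, which also led in Tafa4 and P2ry1, with 1705 CPM (1665 to 1747) and 1562 CPM (1510 to 1616). The cluster led by Mrgpra3 had 863 and 692 CPM, and that led by Mrgprd, a receptor of unmyelinated skin afferents, 791 and 629 CPM. The clusters led by Vmn1r85, Dcdc2a and Sst followed with 529 and 437 CPM, 453 and 376 CPM, and 299 and 251 CPM. It was lowest in the cluster led by Hjurp, Trpm8 and Pvalb, with 167 and 84.9 CPM. The order of the 7 clusters was the same in both libraries, and neighbours in it were apart beyond their counting intervals except for the Mrgpra3 and Mrgprd clusters of the CFA library. Ncmap did not follow that order: it was at 5.07 CPM in the control cluster led by C1ql4 and at 9.39 CPM in that led by Hjurp.

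**Figure D4:**
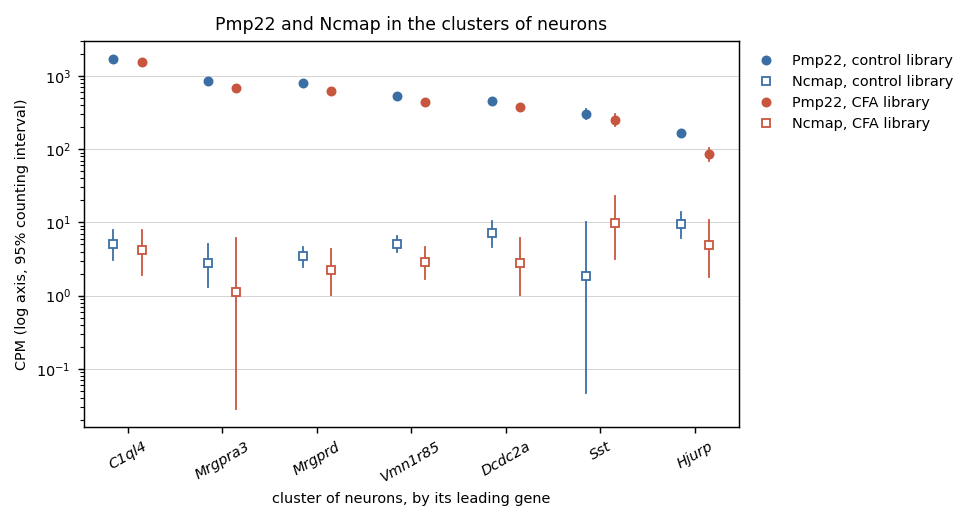
CPM of Pmp22 (filled circles) and Ncmap (open squares) on a log axis in the 7 clusters of neurons, named by their leading gene, in each library, with exact 95% counting intervals. Pmp22 falls from 1705 and 1562 CPM in the cluster led by C1ql4 to 167 and 84.9 CPM in that led by Hjurp, while Ncmap is at 9.88 CPM or less in each of them.

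In ICs, Pmp22 was at 774 and 471 CPM, 2.03 times (1.86 to 2.20) and 3.56 times (3.04 to 4.14) the expectation. With Ncmap alone as the reference, the CFA value was 2.80 times (2.40 to 3.26). The cluster of ICs with C1qa and Csf1r, genes of macrophages, held 825 and 567 CPM, and the cluster with S100a8 and S100a9, genes of neutrophils, 716 and 106 CPM. Ncmap was at 39.8 and 42.0 CPM in the first, from 15 and 12 counts. In the second it was at 90.2 CPM in the control library and gave 1 count in the CFA library. In the control library the intervals of these clusters overlapped for either gene, while in the CFA library Pmp22 was apart between them. The IC class held only these clusters. A cluster led by Xcl1 with Gzma and a cluster led by Igkc with Cd79a, genes of lymphocytes, stayed unnamed and outside it. Pmp22 was at 213 and 35.7 CPM in the Xcl1 cluster. In the Igkc cluster it was at 461 CPM (control) and gave 0 counts in CFA, where 3 counts would be 181 CPM. In ECs, Pmp22 was at 453 and 165 CPM, 0.536 times and 0.268 times the expectation, and 0.972 times and 1.62 times with Ncmap alone.

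In the other glia, Pmp22, Prx and Cldn19 were lower than in mSCs. Non-myelinating Schwann cells, which ensheath thin axons without myelin, held Pmp22 at 5086 and 2914 CPM, Prx at 909 and 675 CPM and Cldn19 at 356 and 337 CPM. Satellite glial cells (SGCs), which wrap the neuronal cell bodies, held Pmp22 at 1268 and 713 CPM and Prx at 179 and 95.1 CPM. The SGC class joined a cluster led by Fabp7, with Pmp22 at 949 and 714 CPM in 948 and 465 cells, and a cluster led by Gbp2 and Cxcl10, genes induced by interferon, with 2202 CPM in 330 control cells but only 9 CFA cells, so the class values of the libraries come from different mixtures. Pllp and Ncmap together were at 35.3% and 28.8% of their mSC level in the first class and at 6.77% and 3.14% in the second. Pmp22, Prx and Cldn19 stood at 1.11 to 1.55 times the expected level in non-myelinating Schwann cells and at 1.24 to 2.48 times in SGCs, with the highest value for Pmp22 in CFA SGCs. How far these classes express the 3 genes themselves was not tested. Cldn11 stood far above the expectation in fibroblasts (FBs): it was at 192 and 311 CPM, 35.4 times and 89.2 times the expectation, with UMIs in 21.3% and 26.0% of FBs. The expectation rested on 2 and 1 counts of Ermn and Opalin in FBs, so the size of these folds is loose. An unnamed cluster of 6 and 37 cells, led by Mgp with Slc47a1 among its leading genes, held Cldn11 at 1298 and 591 CPM. Mog gave 0 counts in FBs of both libraries, where 3 counts would be 2.69 and 5.80 CPM.

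**Figure D5:**
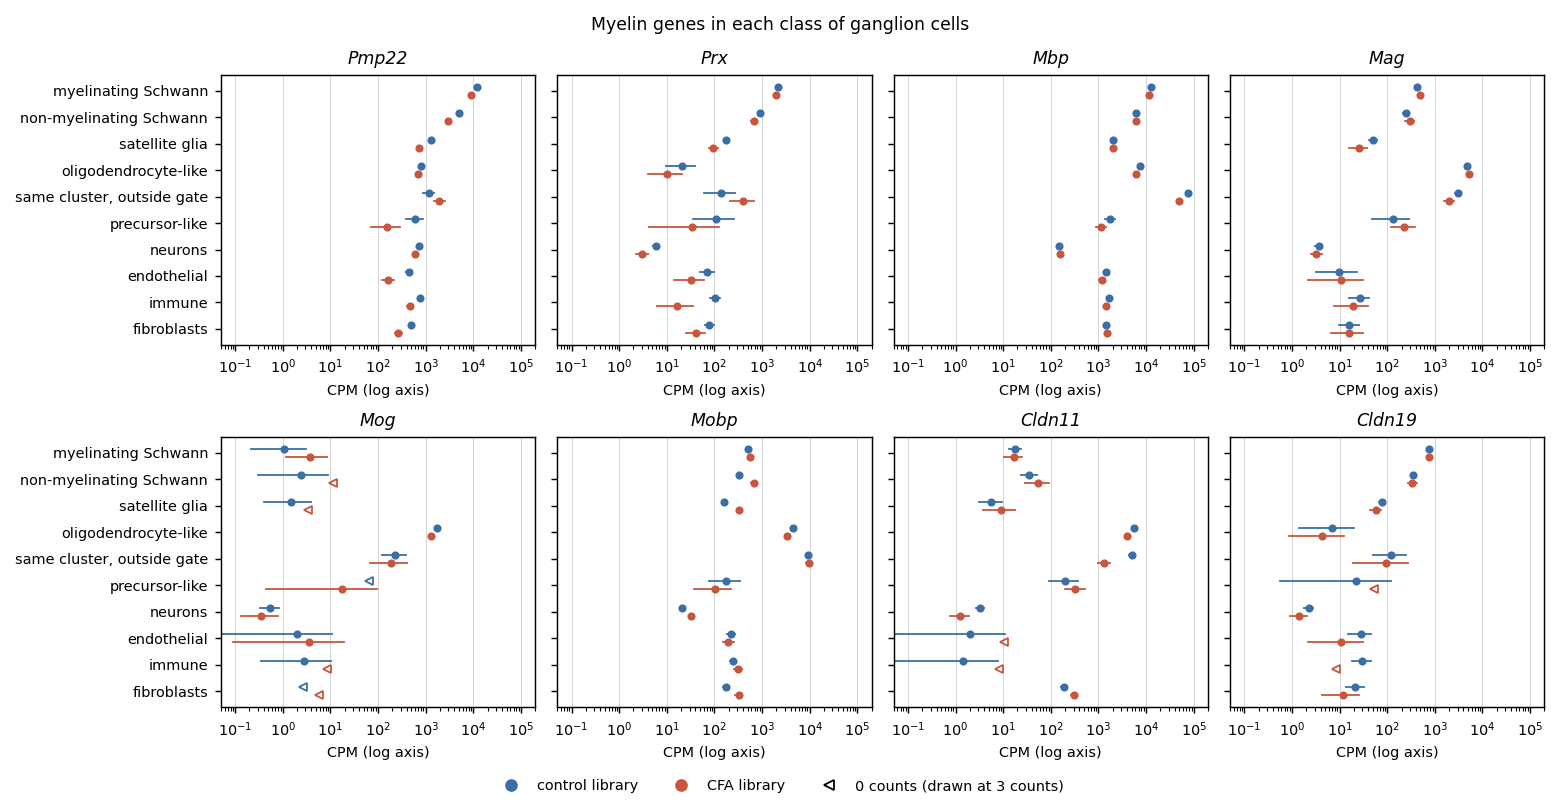
CPM on a log axis for each of the 8 genes in 10 classes of cells, with exact 95% counting intervals, for the control and the CFA library; open triangles mark 0 counts, drawn at the level of 3 counts. Prx and Cldn19 fall from mSCs through the other glia to OLCs and neurons, Mog stands out in OLCs, Cldn11 also appears in FBs, and Pmp22 is at 724 and 603 CPM in neurons.

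By a measure of likeness, Pearson's r of log2(CPM + 1) over 22 sums of a class in a library and among 10796 genes with 500 or more counts, Prx was nearest to Kcna1 (0.92), Ncmap (0.91) and Plekha4 (0.89). Mag was nearest to Fa2h (0.96), Cnp (0.92) and Ugt8a (0.90), which act in both kinds of myelin. Mog was nearest to Hapln2 (0.90), Tprn (0.89) and Kndc1 (0.87), and Cldn11 to Cerox1 (0.88), Efnb3 (0.87) and Sox8 (0.87). Mbp was nearest to Cryab (0.92), Bcas1 (0.91) and Secisbp2l (0.87), and Mobp to Mbp (0.84), Rap1a (0.82) and Nde1 (0.81). Cldn19 was nearest to Prss12 (0.92), Slc36a2 (0.91) and Egfl8 (0.91), and Pmp22 to Ddn (0.85), Cldn19 (0.83) and Kmt5a (0.83). The sums of a library share carried-over RNA, so these values are descriptions.

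Between CFA and control, the 7 genes that mSCs held at more than a few counts lay within 1.5-fold in the main setting. The log2 ratio of CFA over control was −0.37 (−0.40 to −0.34) for Pmp22, −0.12 for Prx, −0.11 for Mbp and 0.01 for Cldn19, against a median of 0.02 over all genes. Mag was at 0.21 (0.07 to 0.35) and Mobp at 0.15 (0.03 to 0.28), but between cells with 2000 or more UMIs both turned, to −0.71 and −0.26, and with every cell weighted equally Mobp was at −0.15. The alternatives tried also took Mobp up to 0.82 and Cldn11 up to 0.81, past 1.5-fold. The lowest values of Mag (−0.71) and Pmp22 (−0.61) were past 1.5-fold too. In the main setting, the 1 gene past 1.5-fold was Mog, higher in CFA on 5 against 3 counts with an interval that includes 0. Of the genes with 20 or more counts, 10.4% were 1.5-fold higher and 11.7% lower. Pmp22 was lower in the CFA library in mSCs under every alternative tried, from −0.61 to −0.34. In the main mSC cluster alone it was at −0.44. It was also lower in CFA in non-myelinating Schwann cells (−0.80), SGCs (−0.83), FBs (−0.87), ECs (−1.45), ICs (−0.72) and neurons (−0.265). The SGC value mixes clusters, since that led by Gbp2 held 330 control but 9 CFA cells. In the Fabp7 cluster of SGCs alone the gap was smaller, with Pmp22 at 949 and 714 CPM. Among the named classes, only the cells of the OLC cluster outside the rule were higher, at 0.754. A lower measured level in CFA was thus not particular to mSCs. Ncmap, read as carry-over, was also lower in CFA in SGCs (−1.34), FBs (−1.36), ECs (−2.04), ICs (−0.82) and neurons (−0.61). Against the expected carry-over, Pmp22 stood higher in CFA than in control in SGCs (2.48 against 1.59 times) and FBs (1.99 against 1.42 times). It was likewise higher in ICs and neurons, and lower in ECs and non-myelinating Schwann cells. How far these classes changed their own Pmp22 was not tested. RNA of other cells also differed between the mSCs of the libraries: the 6 neuronal markers summed to 1428 and 761 CPM, the 5 haemoglobin-cell markers to 109 and 505 CPM, and the 8 IC markers to 41.3 and 13.2 CPM, with 3 of the last at 0 in CFA. Their part in the result was not tested.

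In OLCs, the log2 ratio of CFA over control was −0.53 (−0.60 to −0.45) for Cldn11, −0.47 (−0.56 to −0.38) for Mobp, −0.44 for Mog, −0.26 for Mbp and −0.19 for Pmp22, and it was 0.13 (0.05 to 0.20) for Mag, against a median of 0.03 over all genes. None of these 6 was past 1.5-fold. The 2 that were, Prx and Cldn19, rested on 9 against 7 and 3 against 3 counts, and both their intervals include 0. In OLCs, 14.8% of genes were 1.5-fold higher in CFA and 11.4% lower, counted over genes with 20 or more counts in both sums together, which neither Prx nor Cldn19 reached. With 1 library each, the condition and the library cannot be told apart.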

How the data were processed

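The authors deposited UMI counts per gene and cell barcode from BD Rhapsody whole-transcriptome libraries, sequenced on a NovaSeq after papain dissociation and a density gradient; the submitters' processing notes name build GRCm38 and fastp. The files gave 7298 barcodes with 48916096 UMIs (control) and 4080 with 22096268 (CFA). Barcodes under 150 genes or above 25% mitochondrial counts were left out, as in the study's filter. Cells were clustered with Seurat 5.3.0 (2000 variable genes, 20 components, resolution 0.8) without 44 listed genes: the 8 members, the gate genes and the myelin lists, and named from fixed markers. Clusters with 2 or fewer markers stayed unnamed. Scrublet in scanpy 1.11.5 called 107 control and 4 CFA doublets; fewer than 0.5% of the CFA cells were marked, so no cell was removed by it, and a limit on its score (0.25) was tried as an alternative.

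For each class in each library, counts were added up and divided by all UMIs of that class (CPM). Intervals are exact Poisson intervals for levels and conditional exact binomial intervals for ratios, computed in scipy 1.17.1, at 95%. The coverage of the ratio intervals was checked on simulated Poisson counts, the model that the intervals assume. That simulation leaves out the clumping of UMIs in single cells, so it does not show the coverage for such genes. A level of 0 is given with the level of 3 counts per class and library. Percentages of all genes 4-fold or 1.5-fold apart are over genes with 20 or more counts in both sums together; the members were counted whatever their counts. Expected carry-over was the mSC level times the share of Pllp and Ncmap together plus the OLC level times the share of Ermn and Opalin. Pllp, Ncmap and Pmp2 had been listed as an alternative reference. Pmp2 was not analysed here, and the reference gene first planned and some genes of the lists are not reported here. Gene positions are from GENCODE M21. The named genes were the 8 members, Pllp, Ncmap, Ermn and Opalin, the genes of the lists, and the 3 nearest genes of each member; leading genes of clusters were added after their values were seen. The members and lists were chosen with earlier results of these data known.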

Additional observations from a re-analysis of the deposited data

Results flagged for a closer look

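Mobp stood in opposite directions in the 2 myelin-forming classes between CFA and control. Its log2 ratio of CFA over control was 0.15 (0.03 to 0.28) in mSCs and −0.47 (−0.56 to −0.38) in OLCs, a difference of 0.62. The difference was not tested, since each class has 1 library per condition. Mobp was also higher in CFA in non-myelinating Schwann cells (1.01), SGCs (1.07), FBs (0.86) and neurons (0.62). In ICs it was at 0.35, with an interval that includes 0. Mural cells stood at 3.85, but their 94 CFA counts came from 3 of 23 cells. Mobp was lower in haemoglobin-bearing cells (−2.08). In ECs (−0.17) and OPC-like cells (−0.76, 8 control against 6 CFA counts) the intervals include 0. A rise in mSCs was thus not particular to a myelin-forming class. Mobp in mSCs also varied with depth: it was at 1013 CPM in control mSCs under 1000 UMIs and at 70.2 CPM in those with 3000 or more, and the direction in mSCs turned to −0.15 with every cell weighted equally and to −0.26 in cells with at least 2000 UMIs. Under the alternatives tried, the log2 ratio of Mobp ran from −0.26 to 0.82 in mSCs, past 1.5-fold at its upper end. In OLCs it stayed between −0.55 and −0.39.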

How the results depend on the processing

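The counts of 3 genes on the Schwann side and 4 on the OLC side were 3 and 4 in both libraries under every alternative that gave a value: other gates, filters, resolutions, totals, cell weights, doublet limits and Schwann clusters. Mog, 1 of the 4, was part of the rule that chose the OLCs, so its side adds no support to this stability. The count of gene and class pairs above 3 times carry-over ranged from 5 to 7 in the control and from 6 to 7 in the CFA library; with Ncmap alone as the reference it was 6 and 7, with Mbp in CFA ECs past 3 times and Pmp22 in CFA ICs no longer so. Between CFA and control, mSCs had 2 genes past 1.5-fold with a cell filter of 300 genes and 10% mitochondrial counts, 3 with cells of 2000 UMIs or more and 2 at resolution 1.6, against 1 as reported. OLCs had 1 with all gate cells of any cluster, against 2. The other 97 of these counts stayed within 1.5 times of the reported count; of the values of single genes, 349 stayed within their counting interval and 73 moved. Leaving out the second mSC cluster, the split by depth and Ncmap alone as the reference were chosen after seeing the data. No paired analysis was possible because each condition has 1 library; for the same reason no replicate could be left out. Depth limits Mog in mSCs and Prx and Cldn19 in OLCs, at 9 or fewer counts.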

Other observations

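Haemoglobin-bearing cells, 53 and 98 in the control and CFA library, held peripheral myelin transcripts at levels between those of mSCs and SGCs. Their Pllp and Ncmap together were at 27.6% and 18.7% of the mSC level, their Pmp22 at 3084 and 1631 CPM and their Prx at 582 and 415 CPM, which is 0.945 to 1.13 times the expected level. The OPC-like cells, 13 and 18, held Mbp at 1758 and 1155 CPM, with UMIs in 8 and 13 of them. Their Cldn11 counts, 9 and 19, came from 2 control cells and 1 CFA cell.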
